A study of Mus musculus with 7 samples.

Results

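The mouse genome holds several very large families of chemosensory receptor genes, and 1351 of the 36733 rows of these ChIP-seq files carry their symbols. The rows were taken by symbol alone, as those beginning with Olfr, Vmn1r, Vmn2r, V1r, V2r, Taar or Tas2r followed by a digit or letter, and no measured value entered the choice. They comprise 1089 odorant receptor rows, 131 vomeronasal type 1 rows, 82 vomeronasal type 2 rows, 34 bitter taste receptor rows and 15 trace amine-associated receptor rows, with 1348 symbols in all. All 1351 were present in all 7 files and were kept without a filter. The rows lay on 18 chromosomes, with 289 on chromosome 7, 285 on chromosome 2 and 130 on chromosome 9, and 1216 of them had another receptor row within 50000 bp.

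The study profiled the Tip60-p400 complex and Hdac6 in mouse embryonic stem cells (ESCs) of the E14 line. Tip60 acetylates histones, p400 is the remodelling subunit that exchanges histone H2A variants, and Hdac6 is a class II deacetylase whose relation to the complex the study addressed. It sequenced 7 conditions, with 1 library in each, and knockdown libraries were collected 72 hr after infection with lentivirus. Tip60 was precipitated with the Flag-M2 antibody from cells in which 1 endogenous copy of Tip60 carries a 6-histidine-3-Flag tag (Tip60-H3F), upon control knockdown of GFP (GFP KD) or Hdac6 KD. Hdac6 was precipitated in the same way from Hdac6-H3F cells, upon GFP KD or Tip60 KD. The library titled as Hdac6 ChIP upon Tip60 KD carries Hdac6 KD in its genotype label, so it is the library labelled Tip60 KD by its title throughout. A Flag ChIP of untagged E14 cells without knockdown served as the background control, and p400 was precipitated with an antibody to the endogenous protein upon GFP KD or Hdac6 KD, without a control ChIP of its own. Because every condition is a single library, no difference between conditions could be tested. The 95% exact binomial intervals below cover the counting of reads only, and the variance of the read count over receptor rows was 1.70 to 2.55 times its mean in the 7 libraries.

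Odorant receptors are G protein-coupled receptors of olfactory sensory neurons, each of which expresses a single allele of a single receptor gene. Vomeronasal type 1 and type 2 receptors detect pheromones in the vomeronasal organ, trace amine-associated receptors detect volatile amines, and Tas2r genes encode the bitter taste receptors of taste cells. Most odorant, type 1 vomeronasal, trace amine and bitter receptors are encoded in a single coding exon, whereas type 2 vomeronasal receptors have several exons and a large extracellular domain. In cells outside the sensory tissues the odorant receptor clusters are a textbook example of silent, late-replicating chromatin, but expression was not measured in these files and the silence of the receptors in these cells was not checked.

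The rows did not behave as ordinary transcription start sites. Of the 1351 receptor rows, 1254 (92.8%) began on an ATG in the mm9 genome, compared with 824 of the 21353 other rows with a RefSeq identifier (3.86%). In the GENCODE annotation of the same genome build, 1222 rows fell within a coding exon of their own gene, 88 in the non-coding part of an exon, 18 outside the exons, and 23 had a name that the annotation lacked. For 496 rows the annotation placed a start of the same gene further upstream, at a median distance of 53.5 bp and over 500 bp away in 95 of them. For 11 rows the annotated start was instead over 500 bp downstream. The measured windows are thus centred mostly on the first base of the coding sequence rather than on a mapped promoter, and they are called receptor rows here, with the row start as position 0.

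The sequence around the row starts was poor in GC and very poor in CG. Over the 1001 bp centred on the row start, the median GC content was 39.0% in receptor rows and 53.4% in all other rows, and the median number of CG dinucleotides was 5 and 27. GC content stepped up at the row start, from a mean of 35.0% upstream to 44.0% downstream in receptor rows, compared with 52.2% and 55.1% in other rows. Vomeronasal type 2 rows were the exception, with 37.9% upstream and 35.1% downstream. Within 250 bp before and 50 bp after the row start, the letters TATAAA were found on either strand in 39.9% of receptor rows and in 12.8% of all 36733 rows, and the homeodomain core TAATTA, which reads the same on both strands, in 17.2% and 4.68%. The palindrome of the Olf1/Ebf factors, searched as TCCC and GGGA with any 2 bases between them, was found in 5 receptor rows (0.370%), compared with 0.980% of all rows. A window may hold more than 1 of these motifs, and the receptor windows are also the poorer in GC.

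Windows of 300 bp around 4 row starts, with 150 bp before the row start and 150 bp from it, show the middle part of the sequence over which reads were counted. Reads were counted within 500 bp of the row start. They are those of Olfr982, which held the most Tip60 reads of the receptor rows, Olfr279, which held the most Hdac6, and Olfr1239 and Olfr1475, which were among the largest called increases of Tip60 and p400 upon Hdac6 KD. The sequences are from the mm9 genome, 5′ to 3′ on the strand of the gene, with each CG and the ATG at the row start in capitals. Olfr982 lies at chr9:39881732-39882031 (+), Olfr279 at chr15:98327755-98328054 (+), Olfr1239 at chr2:89258419-89258718 (−) and Olfr1475 at chr19:13554537-13554836 (−). In each, the annotation placed the first coding base at the row start and no other exon of the gene before it.
Olfr982: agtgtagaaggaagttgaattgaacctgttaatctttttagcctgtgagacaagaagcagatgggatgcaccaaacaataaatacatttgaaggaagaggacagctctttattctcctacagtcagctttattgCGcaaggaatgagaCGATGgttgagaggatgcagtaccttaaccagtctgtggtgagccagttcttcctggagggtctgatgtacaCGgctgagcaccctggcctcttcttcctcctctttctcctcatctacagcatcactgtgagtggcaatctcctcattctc
Olfr279: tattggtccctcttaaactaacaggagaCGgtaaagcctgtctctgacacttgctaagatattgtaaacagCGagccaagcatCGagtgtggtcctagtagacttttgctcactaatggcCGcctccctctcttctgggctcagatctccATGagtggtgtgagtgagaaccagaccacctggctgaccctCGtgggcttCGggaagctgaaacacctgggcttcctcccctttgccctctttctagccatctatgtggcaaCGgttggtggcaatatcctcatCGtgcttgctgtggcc
Olfr1239: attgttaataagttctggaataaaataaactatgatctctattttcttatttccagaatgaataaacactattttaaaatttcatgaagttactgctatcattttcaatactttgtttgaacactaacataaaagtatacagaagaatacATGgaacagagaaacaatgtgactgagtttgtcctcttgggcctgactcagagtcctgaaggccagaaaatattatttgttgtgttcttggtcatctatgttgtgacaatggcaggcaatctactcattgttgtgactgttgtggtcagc
Olfr1475: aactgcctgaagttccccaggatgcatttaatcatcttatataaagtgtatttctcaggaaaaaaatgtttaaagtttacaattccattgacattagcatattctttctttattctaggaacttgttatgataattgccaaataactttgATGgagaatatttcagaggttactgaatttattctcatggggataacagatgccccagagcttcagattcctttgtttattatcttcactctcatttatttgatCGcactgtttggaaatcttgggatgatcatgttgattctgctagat

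Olfr279 held 8 CG in these 300 bp and had a GC content of 48.7% before the start and 56.7% from it. Olfr1239 held 0 CG, with 23.3% before the start and 43.3% from it, and Olfr1475 held 1 CG, with 29.3% and 36.7%. Olfr982 lay between them, with 3 CG and with 46.0% over the 300 bp and 52.0% from the start. All 4 therefore show the rise in GC content at the first coding base, at different overall levels.

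Reads near the receptor rows were few in every library. Levels are given as reads per 1000000 normalizing reads (RPM) within 500 bp of the row start, a window of the same length for every row, and 1 read amounted to 0.0319 to 0.108 RPM, depending on the library's depth. The mean over receptor rows was 0.376 RPM for Tip60 upon GFP KD, 0.335 for Hdac6 upon GFP KD, 0.361 for p400 upon GFP KD and 0.362 in the untagged control. It was 0.388 for Tip60 upon Hdac6 KD, 0.363 for p400 upon Hdac6 KD and 0.330 for Hdac6 in the library labelled Tip60 KD. The 7 means thus lay within a narrow range, and a median receptor row held 3 reads in either Hdac6 library and 7 to 11 in the other libraries. Between 16 and 34 receptor rows had no read in the Tip60, untagged and p400 libraries, compared with 103 and 156 in the Hdac6 libraries, which were the least deeply sequenced.

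In contrast, the same libraries differed widely at the other rows. Other rows averaged 0.624 RPM for Tip60 upon GFP KD, 0.989 for Hdac6 upon GFP KD, 0.899 for p400 upon GFP KD and 0.532 in the untagged control. The receptor level was therefore 0.603 of the other rows' level for Tip60 (95% counting interval 0.592 to 0.615), 0.339 for Hdac6 (0.329 to 0.348) and 0.402 for p400 (0.395 to 0.409). The p400 values are over the 21353 other rows with a RefSeq identifier, and those of the other libraries over all 35382. On those 21353 rows Tip60 averaged 0.662 RPM, Hdac6 1.09 and the control 0.548. None of these ratios is matched for GC content. The untagged control was itself lower at receptor rows, at 0.681 of the other rows (0.668 to 0.693), and it carries no tagged protein. Against ribosomal protein gene rows (n = 93), which are used in every cell, the receptor level was 0.243 for Tip60, 0.237 for Hdac6, 0.205 for p400 and 0.484 in the control. Against rows of Zfp genes (n = 356), another large gene family, whose windows were on average 97.2% unique and so no match for the receptors in mappability, it was 0.508, 0.292, 0.353 and 0.588, with the libraries in that order.

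**Figure D1:**
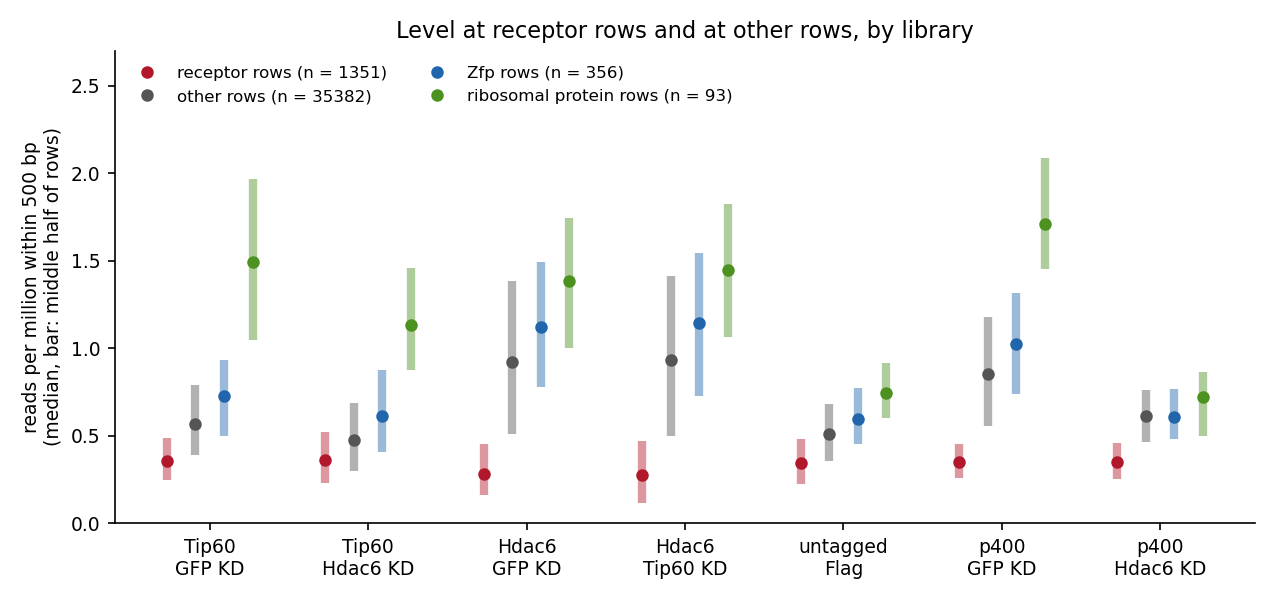
RPM within 500 bp of the row start in each of the 7 libraries, for receptor rows, all other rows, Zfp rows and ribosomal protein rows; points are medians over rows and bars run from the first to the last quartile, and the p400 libraries cover 21353 of the other rows. Receptor medians lie between 0.277 and 0.363 RPM in all 7 libraries, below the medians of the other groups.

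Few receptor rows reached the upper range of any library. Over the whole of each file, 2 receptor rows exceeded the 90th percentile of all rows for Tip60 upon GFP KD, 3 for Hdac6 upon GFP KD, 0 for p400 upon GFP KD and 14 in the untagged control. Upon Hdac6 KD, 31 exceeded it for Tip60 and 7 for p400, and 1 did for Hdac6 in the library labelled Tip60 KD. At the other end, 571 receptor rows (42.3%) fell below the 10th percentile of p400 upon GFP KD, 497 (36.8%) below that of Hdac6, 297 (22.0%) below that of Tip60 and 319 (23.6%) below that of the control. The p400 percentiles are over 22704 rows and the others over 36733, so the p400 shares are not on the same footing as the rest.

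Fewer 50-mers were unique in receptor windows than in other rows, and the receptor level against other rows moved with uniqueness. Whether the repeated 50-mers match other receptor genes was not checked. On average 88.8% of the 50-mers in a receptor window occurred once in the genome, compared with 94.6% in other rows, and reads with several matches had been placed at 1 of them at random. The share was 77.5% in vomeronasal type 2 rows, 82.8% in type 1 rows and 99.7% in bitter taste rows. In the 710 receptor rows with at least 95% unique 50-mers, the receptor level against other rows was 0.672 for Tip60, 0.380 for Hdac6, 0.448 for p400 and 0.782 in the untagged control, above the values over all receptor rows in each library.

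The first comparison asks whether tagged Tip60 or Hdac6 gave more reads at receptor rows than the antibody alone. For Tip60 it barely did. Summed over the 1351 receptor rows, Tip60 upon GFP KD stood at 1.04 times the untagged control (1.01 to 1.07), with 698 rows higher and 642 lower, compared with 1.17 times over other rows (1.17 to 1.18) and 2.07 times over ribosomal protein rows (1.95 to 2.20). In receptor rows with at least 95% unique 50-mers the ratio was 1.01. By family it was 1.03 for odorant rows (1.00 to 1.06), 1.08 for vomeronasal type 1 rows (0.989 to 1.18), 1.07 for type 2 rows (0.953 to 1.19), 1.02 for trace amine rows (0.794 to 1.32) and 1.05 for bitter taste rows (0.891 to 1.23). The intervals of the last 4 families included 1.

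Hdac6 was lower than the control at receptor rows as a whole. It stood at 0.925 of the untagged control (0.895 to 0.956), with 562 rows higher and 778 lower, compared with 1.86 times over other rows (1.85 to 1.87). The other rows were also richer in GC, and the comparison at equal GC content is given with the GC bins below. The families differed, at 1.05 for trace amine rows (0.773 to 1.42), 0.984 for odorant rows (0.949 to 1.02), 0.752 for vomeronasal type 1 rows (0.665 to 0.849), 0.644 for bitter taste rows (0.512 to 0.811) and 0.445 for type 2 rows (0.368 to 0.535). The direction of the total depended on the window and the scaling. It was 1.04 in the window from −100 to 300 bp, and 1.59 after each library was divided by its own level at 1500 to 2000 bp on either side.

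A receptor row was called when the libraries differed by at least 2-fold with at least 10 reads in the higher one, a description of 2 libraries that carries no test. Tip60 was called over untagged in 111 receptor rows (8.22%), where 12.3% of all rows were called. Hdac6 was called over untagged in 47 receptor rows (3.48%), where 34.8% of all rows were called. Of these 47, 45 were odorant receptor rows, 1 was a bitter taste row and 1 was Vmn1r4, whose row start lies 193 bp from that of another gene, Nt5c3. In the Tip60 comparison 716 receptor rows (53.0%) had 10 reads in at least 1 of the 2 libraries, and 544 (40.3%) did in the Hdac6 comparison. Of all rows, 81.0% and 78.3% did. A call over untagged needed the 10 reads in the tagged library, so fewer rows than these could be called. Only 81 receptor rows (6.00%), compared with 59.0% of all rows, had 10 reads in at least 1 of the 2 Hdac6 libraries.

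The mean profiles separated the libraries more clearly than the totals did. In the untagged control and in both Tip60 libraries, the receptor rows were nearly flat from −2000 to 2000 bp. Hdac6 instead rose at the row start and fell back close to 1000 bp downstream. Between 100 and 500 bp downstream the Hdac6 mean was 0.206 RPM, compared with 0.076 RPM at the same distance upstream, a difference of 169%. The same contrast was 0.660% in the untagged control, 1.95% for Tip60 upon GFP KD, 22.6% for p400 upon GFP KD and 39.4% for p400 upon Hdac6 KD. In other rows Hdac6 was 17.9% higher downstream than upstream.

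**Figure D2:**
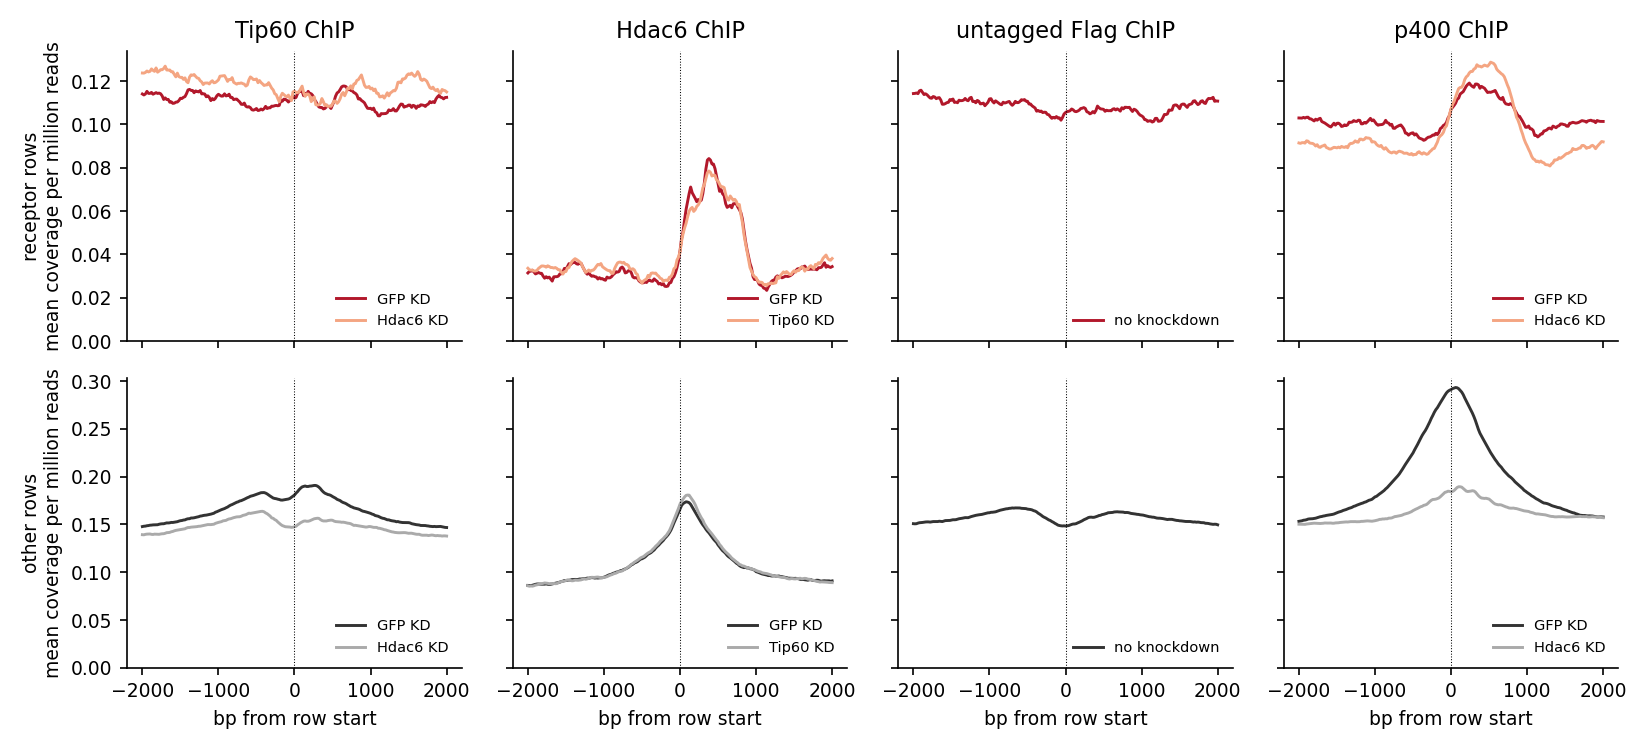
Mean coverage per 1000000 reads in 20-bp bins from −2000 to 2000 bp around the row start, for receptor rows (top) and all other rows (bottom, with its own scale), with control and knockdown libraries overlaid for each ChIP. At receptor rows Hdac6 and, less so, p400 form a block that begins at position 0 and ends near the end of the coding exon, while Tip60 and the untagged control stay level; Hdac6 coverage per read is lower because reads in those files span 148 to 149 bp rather than 299 bp.

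The block coincided with the coding exon. The median distance from the row start to the end of its coding exon was 938 bp for odorant, 917 bp for vomeronasal type 1, 929 bp for bitter taste and 1034 bp for trace amine rows, but 214 bp for vomeronasal type 2 rows. In the 1151 rows whose exon ended 800 to 1100 bp downstream, zones of 500 bp were compared before the start (−1200 to −700 bp), inside the exon (200 to 700 bp) and beyond it (1200 to 1700 bp); the zones were chosen after the profiles had been seen. Hdac6 upon GFP KD measured 0.208, 0.509 and 0.211 RPM per kb in the 3 zones, and 0.228, 0.504 and 0.210 in the library labelled Tip60 KD. The level inside the exon was thus 145% above that before it in one Hdac6 library and 121% above it in the other, and the level beyond the exon returned to that before it.

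For p400 the same zones held 0.339, 0.397 and 0.334 RPM per kb upon GFP KD, and 0.304, 0.439 and 0.288 upon Hdac6 KD. The excess inside the exon was therefore 17.1% upon GFP KD and 44.6% upon Hdac6 KD. Tip60 showed no excess, at 0.383, 0.382 and 0.359 upon GFP KD and 0.410, 0.376 and 0.404 upon Hdac6 KD, and the untagged control measured 0.373, 0.360 and 0.363. Over all 1351 receptor rows, uniqueness did not step at the start, with 88.8% unique 50-mers in the 500 bp before it and 88.6% in the 500 bp after it. Uniqueness was not measured in the zones themselves.

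GC content moved with the block. It averaged 35.5% before the start, 44.6% inside the exon and 35.1% beyond it in these 1151 rows, and the size of that step differed between the families. In odorant rows (n = 998) GC stepped from 35.3% to 44.9% and Hdac6 inside the exon was 161% above the level before it upon GFP KD and 133% above it in the library labelled Tip60 KD. In vomeronasal type 1 rows (n = 106) GC stepped from 37.6% to 42.6% and Hdac6 was 56.2% and 75.1% higher in these libraries. In bitter taste rows (n = 33) GC stepped from 36.6% to 38.9%, and the Hdac6 libraries went in opposite directions, by 23.0% and −17.6%, while Tip60 upon GFP KD differed by 29.5%, so that no Hdac6 block was resolved there. Where zones of equal GC were compared, the excess was smaller. At a zone GC content of 35 to 40%, Hdac6 upon GFP KD measured 0.229 before the start, 0.305 inside the exon and 0.272 RPM per kb beyond it, and p400 upon Hdac6 KD measured 0.322, 0.353 and 0.305. At a zone GC content of 40 to 45%, Hdac6 upon GFP KD measured 0.383 before the start, 0.424 inside the exon and 0.367 RPM per kb beyond it, and p400 upon Hdac6 KD measured 0.406, 0.394 and 0.395. At 45 to 50% the Hdac6 values were 0.457, 0.557 and 0.418. The part of base composition in these levels was not tested beyond these zones.

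The vomeronasal type 2 rows, which begin in a short exon and lack the GC step, showed no such block. Their Hdac6 level was 0.068 RPM from −500 to −100 bp and 0.060 from 100 to 500 bp, a difference of −11.1%. Odorant rows measured 0.075 and 0.230, 208% higher downstream, and trace amine rows 0.130 and 0.222. Vomeronasal type 1 rows measured 0.092 and 0.117, and bitter taste rows 0.075 and 0.121. The untagged control was about level across the start in the odorant rows, at 0.151 upstream and 0.152 downstream. In bitter taste rows the control was 15.1% higher downstream and Tip60 upon GFP KD 31.2% higher. Hdac6 in the library labelled Tip60 KD was 8.90% higher downstream in those rows.

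**Figure D3:**
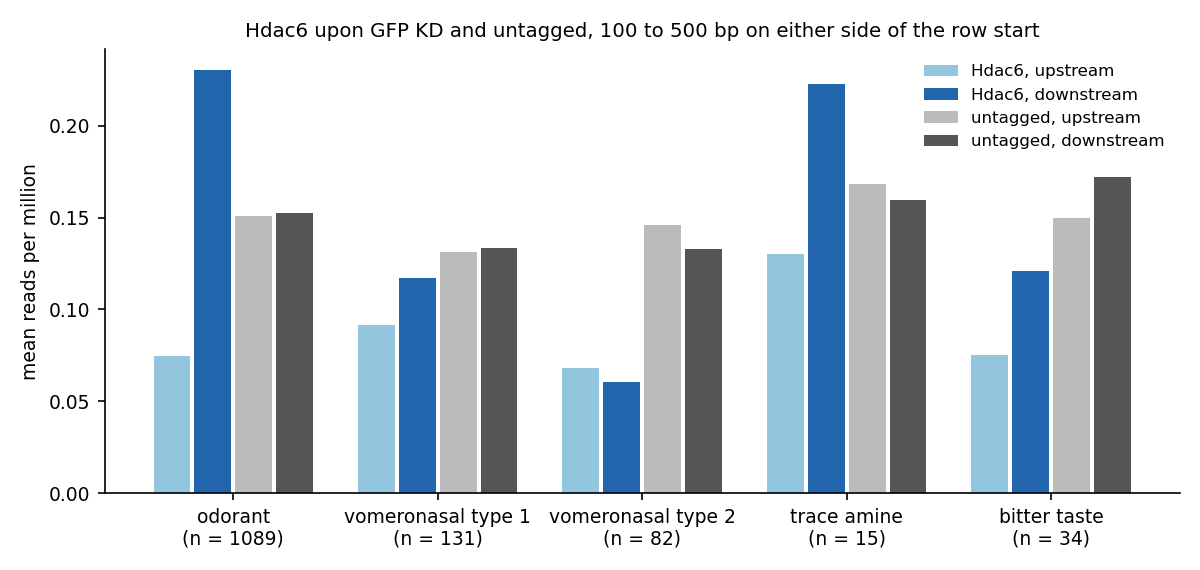
Mean RPM from 100 to 500 bp upstream and downstream of the row start for Hdac6 upon GFP KD and the untagged control, by receptor family; bars start at 0 and each is the mean over the rows of 1 library, with no replicate error. Hdac6 is higher downstream in every family but the vomeronasal type 2 rows, and the untagged control shows no such step in the odorant rows. In the bitter taste rows the control is also higher downstream, by 15.1%.

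Across receptor rows, Hdac6 varied with GC content while Tip60 upon GFP KD and the control hardly did. Binned by the GC content of the 1001-bp window in steps of 5 points from 30 to 55%, with 213, 585, 386, 119 and 42 receptor rows, mean Hdac6 upon GFP KD was 0.177, 0.263, 0.384, 0.601 and 0.884 RPM. The untagged control measured 0.350, 0.362, 0.364, 0.365 and 0.396 in the same bins, and Tip60 upon GFP KD 0.373, 0.379, 0.364, 0.386 and 0.423. Relative to the control, Hdac6 thus ran from 0.505 (0.453 to 0.561) in the lowest bin to 2.23 (1.94 to 2.57) in the highest, whereas Tip60 stayed between 1.00 and 1.07. Over other rows in the same bins, Hdac6 averaged 0.192, 0.370, 0.418, 0.642 and 0.958 RPM. Its ratio to the control was 0.448, 0.786, 0.960, 1.27 and 1.64 there, and 0.505, 0.728, 1.06, 1.64 and 2.23 at receptor rows. At equal GC content this ratio was lower at receptor rows at 35 to 40% and higher in the rest of the bins. Of the 42 receptor rows at 50 to 55% GC, 15 (35.7%) were called for Hdac6 over untagged, compared with 27.1% of other rows in that bin. At 30 to 35% GC, 0 of 213 were called, compared with 0.248% of other rows. As a description over the 1351 rows of single libraries, Pearson's r with GC content was 0.575 for Hdac6 upon GFP KD (Spearman's rho 0.518), 0.010 for Tip60 (−0.012) and 0.023 for the control (0.014). It was 0.274 for p400 upon GFP KD (0.248) and 0.507 upon Hdac6 KD (0.479). Neither the receptors nor Hdac6 were alone in this, since over the 35382 other rows r was 0.416 for Hdac6 upon GFP KD (rho 0.735).

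**Figure D4:**
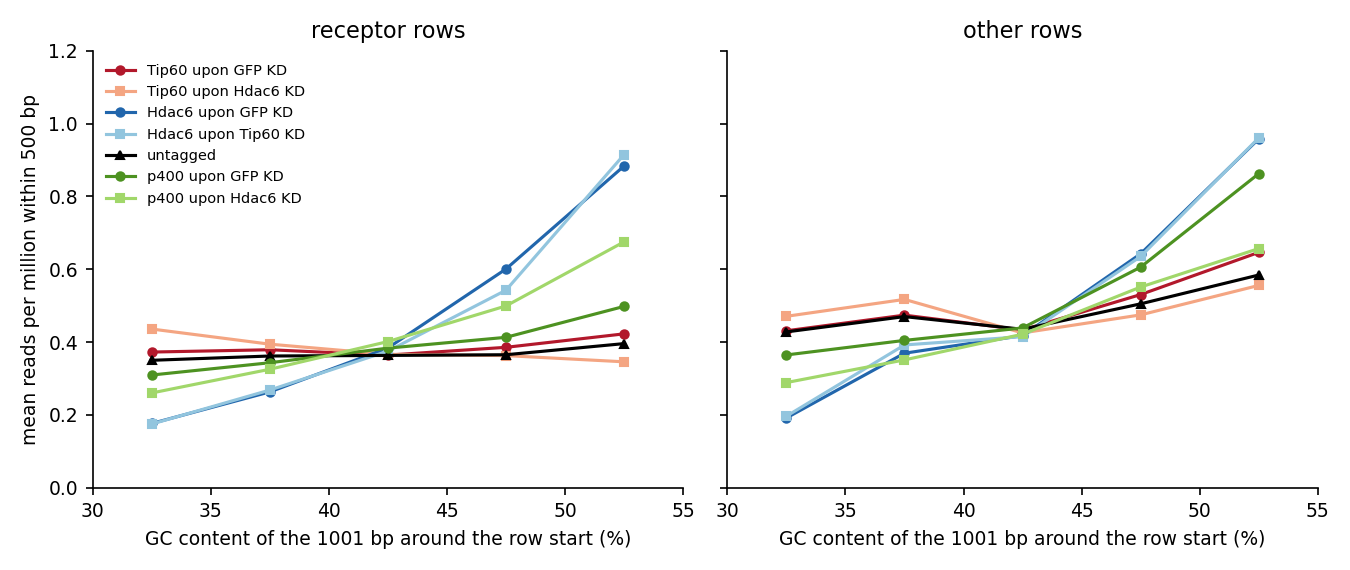
Mean RPM within 500 bp of the row start against GC content of the 1001-bp window in bins of 5 points, for receptor rows (left) and other rows (right), 1 line per library. At receptor rows Hdac6 upon GFP KD climbs from 0.177 to 0.884 RPM across the bins, while the untagged control moves from 0.350 to 0.396.

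Within a narrow range of GC content, the families were harder to separate. At 35 to 40% GC, mean Hdac6 upon GFP KD was 0.277 RPM in 478 odorant rows, 0.237 in 55 vomeronasal type 1 rows, 0.211 in 12 bitter taste rows and 0.154 in 40 type 2 rows. In the untagged control the same rows measured 0.369, 0.328, 0.422 and 0.308. Relative to the control, Hdac6 differed by −24.9% in odorant rows (−29.3 to −20.4), −27.6% in type 1 rows (−40.3 to −12.7), −50.0% in bitter taste rows (−68.2 to −25.1) and −50.1% in type 2 rows (−62.2 to −35.2), so that only the odorant and type 2 intervals did not overlap. At 40 to 45% GC the differences were 7.65% in 324 odorant rows (1.02 to 14.7), 4.04% in 35 type 1 rows (−16.8 to 29.5) and −28.9% in 11 type 2 rows (−52.1 to 5.42), and all of these intervals overlapped. Among the 13 chromosomes with at least 20 receptor rows, Hdac6 was highest on chromosome 4 (0.638 RPM in 23 rows with a mean GC content of 46.2%) and next on chromosome 11 (0.513 in 79 rows, 44.4%) and chromosome 1 (0.460 in 27 rows, 44.8%). It was lowest on chromosome 10 (0.260 in 86 rows, 38.6%), while chromosome 2, the lowest in GC content at 37.1%, measured 0.278 in 285 rows. The 61 rows of chromosome 19 were lowest for Tip60 (0.268) and p400 (0.301) upon GFP KD and in the control (0.252).

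The second comparison asks how Tip60 at receptor rows changed upon Hdac6 KD. In the receptor rows as a whole it hardly moved. Their summed Tip60 RPM changed by 3.19% (0.423 to 6.04), with 661 rows higher and 677 lower. Over the other rows the change was −15.6% (−16.0 to −15.2), and over the ribosomal protein rows −25.6% (−29.7 to −21.3). The sign at receptor rows was not stable, since it became −5.57% when each library was divided by its level at 1500 to 2000 bp, and 6.13% in rows with at least 95% unique 50-mers. Tip60 upon Hdac6 KD stood at 1.07 times the untagged control in receptor rows (1.04 to 1.10), close to the 1.04 upon GFP KD. These comparisons share libraries and are not independent of each other.

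Single receptor rows scattered in both directions. Tip60 was at least 2-fold lower upon Hdac6 KD in 103 receptor rows (7.62%), where 15.6% of all rows were called, and at least 2-fold higher in 131 (9.7%), where 5.19% of all rows were called. By family the lower and higher calls were 86 and 111 for odorant rows, 6 and 9 for vomeronasal type 1 rows, 7 and 6 for type 2 rows, and 2 and 2 for trace amine rows, and 2 and 3 bitter taste rows were called. Calls thus leaned upward in receptor rows and downward over all rows. The minimum of 10 reads was met by 641 receptor rows (47.4%), compared with 75.2% of all rows, so that fewer receptor rows could be called. At 30 to 35% GC, 9 of 213 receptor rows (4.23%) were called lower and 32 (15.0%) higher. Of other rows in that bin, 6.95% were called lower and 10.9% higher, so calls leaned upward there too. The 2 Tip60 libraries were weakly alike across receptor rows, with r = 0.232 and rho = 0.245 over 1351 rows, compared with 0.538 and 0.438 for the 2 Hdac6 libraries.

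Of the rows named by the highest Tip60 level upon GFP KD, Olfr982 held 28 Tip60 reads upon GFP KD but 7 upon Hdac6 KD, 17 Hdac6 reads upon GFP KD and 6 in the library labelled Tip60 KD, 14 untagged reads, and 17 and 20 p400 reads. Its Tip60 level of 1.30 RPM was the highest of the 1351 rows, and it was 0.377 RPM upon Hdac6 KD. Read counts of single rows are not corrected for depth, and its p400 reads amounted to 0.666 and 0.629 RPM. Olfr920 held 26 and 4 Tip60 reads, 4 and 4 Hdac6 reads, 21 untagged reads, and 20 and 8 p400 reads. The control thus came close to Tip60 at Olfr920. Vmn2r87 held 22 and 7 Tip60 reads and 3 untagged reads, Olfr309 held 22 and 6 with 18 untagged, Olfr1240 held 22 and 12 with 11 untagged, and Olfr1307 held 21 and 14 with 19 untagged. Tip60 was lower upon Hdac6 KD in all 6, and since they were picked for a high count in 1 of the 2 libraries, that direction is set by the choice.

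The largest changes rested on few reads. Tip60 went from 14 reads to 0 at Olfr1093, from 14 to 1 at Olfr1417 and from 11 to 1 at Olfr117. It went from 0 to 13 at Olfr1447, from 2 to 22 at Olfr1239 and from 1 to 11 at Vmn2r104. At Olfr1239 the untagged control held 12 reads, Hdac6 held 0 and 0, and p400 held 7 and 8. The 22 Tip60 reads upon Hdac6 KD were thus the one high value among the 7 libraries at that row.

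The direction of the Tip60 change followed GC content. In receptor rows it was 17.0% (9.37 to 25.1) at 30 to 35% GC, 4.04% (−0.153 to 8.43) at 35 to 40%, 0.600% (−4.52 to 6.00) at 40 to 45%, −5.89% (−14.3 to 3.32) at 45 to 50% and −18.2% (−30.3 to −4.38) at 50 to 55%. Other rows with a RefSeq identifier and at most 10 CG in the window, the 90th percentile of receptor rows, differed by 11.2% (4.15 to 18.8), 8.59% (4.72 to 12.6), −1.57% (−4.56 to 1.51), −7.59% (−10.7 to −4.43) and −15.7% (−19.5 to −11.7). In all 5 bins the counting intervals of the receptor rows and of these CG-poor rows overlapped. This limit on CG was set after the GC bins had been seen.

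The third comparison concerns p400, for which the contrast between receptor rows and the rest was widest. Summed p400 at receptor rows changed by 0.562% upon Hdac6 KD (−1.80 to 2.98), with 669 rows higher and 670 lower. Over other rows the change was −32.0% (−32.3 to −31.8), over Zfp rows −39.5% (−41.3 to −37.5) and over ribosomal protein rows −59.5% (−61.6 to −57.4). By family the change was 2.14% in odorant rows (−0.501 to 4.84), 4.67% in trace amine rows (−15.3 to 29.9), −6.10% in bitter taste rows (−19.1 to 9.28), −6.58% in vomeronasal type 1 rows (−13.9 to 1.44) and −9.67% in type 2 rows (−18.8 to 0.612). Each of these intervals included 0.

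Calls for p400 were fewer downward and more frequent upward than over all rows. It was at least 2-fold lower in 72 receptor rows (5.33%), where 20.9% of all 22704 rows in the p400 files were called, and at least 2-fold higher in 91 (6.74%), where 2.53% of all rows were called. Of the 91, 78 were odorant rows, 8 vomeronasal type 1, 3 bitter taste and 2 type 2 rows. In this comparison 975 receptor rows (72.2%) met the minimum of 10 reads, compared with 93.4% of all rows in the p400 files. Higher calls were more frequent where GC was high, with 8 of 213 receptor rows (3.76%) called higher at 30 to 35% GC and 10 of 42 (23.8%) at 50 to 55%, where 1.86% and 3.42% of other rows were called. In the highest bin 3709 other rows held more than 10 CG and 419 at most 10, so most were unlike the receptor rows in CG. Calls were not counted apart by CG.

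Behind the flat total lay opposite changes at low and high GC content. The p400 change in receptor rows was −15.9% (−21.4 to −10.0), −5.22% (−8.71 to −1.59), 4.69% (0.299 to 9.27), 20.9% (12.5 to 30.0) and 35.6% (21.7 to 51.4) from the lowest to the highest bin. Other rows with at most 10 CG (n = 206, 671, 1034, 792 and 419) changed by −20.6% (−25.6 to −15.3), −13.1% (−15.9 to −10.1), 1.84% (−0.787 to 4.54), 16.5% (13.4 to 19.6) and 20.1% (16.2 to 24.2). Other rows with more than 10 CG went the other way at high GC, by −16.2% (−17.5 to −14.9) at 45 to 50% and −26.9% (−27.6 to −26.2) at 50 to 55%. At equal GC content the sign of the p400 change at receptor rows was thus that of other CG-poor rows, and at 35 to 40% the 2 intervals did not overlap. The cause of this dependence on GC content was not tested.

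**Figure D5:**
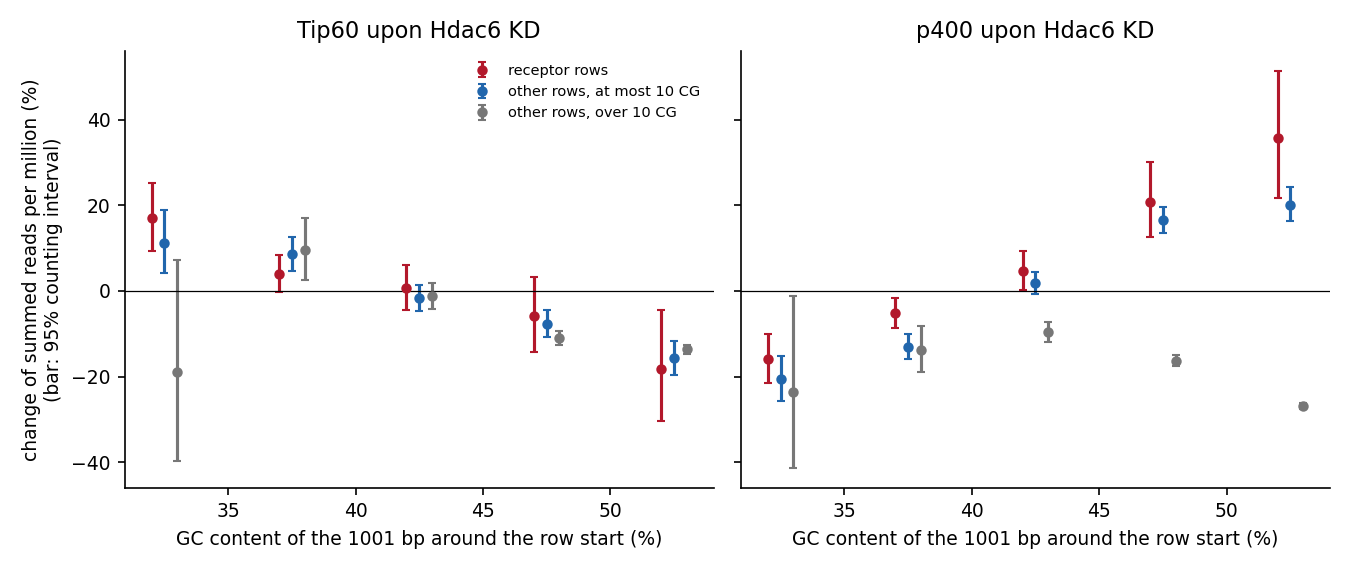
Percent change of summed RPM upon Hdac6 KD against GC content in bins of 5 points, for Tip60 (left) and p400 (right), in receptor rows, other rows with at most 10 CG and other rows with over 10 CG; points are the change between 2 single libraries and bars are 95% counting intervals, and the groups are set side by side within a bin. For p400, receptor rows run from −15.9% to 35.6% and CG-poor rows from −20.6% to 20.1%, while rows with over 10 CG reach −26.9% in the highest bin.

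The rows with the most p400 reads upon GFP KD were Vmn1r4, Olfr95, Olfr222, Olfr1357 and Taar2. Vmn1r4 held 34 p400 reads upon GFP KD but 17 upon Hdac6 KD, 15 and 12 Tip60 reads, 13 and 11 Hdac6 reads, and 7 untagged reads. Nt5c3, whose start lies close to this row, is a nucleotidase gene on the opposite strand. The row had 58.6% GC and 77 CG, and the annotation placed Vmn1r4 itself 32444 bp downstream. It was the only receptor row within 500 bp of another gene's RefSeq row, and 4 were within 4000 bp. Olfr95 held 25 and 22 p400 reads and 19 untagged reads, Olfr222 held 23 and 25 with 20 untagged, Taar2 held 22 and 19 with 17 untagged, and Olfr1357 held 22 and 17 with 18 untagged. In the last 4 rows the untagged control, made with another antibody, held nearly as many reads as p400, and in Vmn1r4 it held far fewer. In RPM, which allows for depth, p400 was lower upon Hdac6 KD in all of the rows named here. Olfr222, for example, measured 0.896 and 0.796 RPM. Since the rows were picked for a high level upon GFP KD, that direction is set by the choice.

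The largest called p400 differences downward were from 10 to 2 reads at Olfr761, from 13 to 2 at Vmn1r90 and from 10 to 2 at Vmn2r66. Vmn1r90 again had an atypical window, with 74.7% GC, 132 CG and a row start in a non-coding exon. Those upward were from 0 to 11 reads at Olfr1502 and Olfr1188 and from 2 to 16 at Olfr1475. At Olfr1475, whose sequence is shown above, Tip60 held 2 and 0 reads, Hdac6 1 and 0, and the untagged control 2. The 16 reads of p400 upon Hdac6 KD thus stood alone among the 7 libraries, in a window in which 72.6% of 50-mers were unique.

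The last comparison asks whether Hdac6 at receptor rows changed upon Tip60 KD. It changed by −1.47% (−5.42 to 2.67) in the library labelled Tip60 KD, with 642 rows higher and 675 lower, and by 2.44% over other rows (1.97 to 2.91). Hdac6 was at least 2-fold lower in 25 receptor rows (1.85%), where 4% of all rows were called, and higher in 8 (0.592%), where 3.13% were called. The minimum of 10 reads was met by 81 receptor rows (6.00%), compared with 59.0% of all rows, so that most receptor rows could not be called in either direction. The interval for odorant rows was −7.16 to 1.42% and that for type 2 rows −2.77 to 57.6%, the latter resting on levels below those of the untagged control.

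The counts of called receptor rows moved with the call rule, and they are given for each rule in the order of Tip60 over untagged, Hdac6 over untagged, Tip60 lower and higher, p400 lower and higher, and Hdac6 lower and higher. At 1.5-fold with 10 reads, 189, 65, 187, 212, 177, 223, 39 and 12 receptor rows were called, where 25.2%, 45.4%, 28.1%, 11.3%, 42.6%, 7.62%, 10.5% and 9.77% of all rows were. As shares of the 1351 receptor rows these were 14.0%, 4.81%, 13.8%, 15.7%, 13.1%, 16.5%, 2.89% and 0.888%. Receptor rows were thus above all rows for higher Tip60 and higher p400 upon Hdac6 KD and below them in the other 6. At 2-fold with 20 reads, 4, 4, 6, 11, 3, 24, 0 and 0 receptor rows were called, where 5.57%, 11.8%, 4.71%, 1.13%, 18.5%, 1.48%, 0.798% and 0.583% of all rows were. At 0.814% the higher Tip60 calls then lay below all rows, and at 1.78% the higher p400 calls lay just above. After the libraries were scaled to equal totals at 1500 to 2000 bp, 119, 39, 97, 144, 65, 100, 25 and 9 receptor rows were called, where 12.9%, 27.7%, 13.7%, 6.11%, 18.7%, 2.89%, 3.94% and 3.16% of all rows were. By an exact binomial test on the reads of each pair of libraries (Benjamini-Hochberg adjusted p below 0.05 over all rows), 2, 23, 2, 3, 4, 8, 0 and 0 receptor rows passed, where 1.34%, 22.3%, 0.422%, 0.0517%, 13.1%, 0.3%, 0% and 0.00272% of all rows did. This test compares the libraries and not the conditions.

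Olfr279 held the most Hdac6 of any receptor row, with 35 reads upon GFP KD and 15 in the library labelled Tip60 KD, 15 and 7 Tip60 reads, 14 untagged reads, and 20 and 15 p400 reads. Its Hdac6 level was 3.04 RPM upon GFP KD and 1.62 RPM in the other library, and 0.604 RPM in the control. In the same libraries, which differ in depth, Olfr455 measured 1.97, 1.55 and 0.405 RPM, Olfr1349 1.83, 1.11 and 0.836 RPM, Olfr222 1.77, 1.72 and 0.862 RPM, and Olfr15 1.57, 1.14 and 0.431 RPM. All were lower in the library labelled Tip60 KD, and since they were picked for a high level upon GFP KD, that direction is set by the choice. These 5 rows had GC contents of 50.5 to 56.1%, above the receptor median of 39.0%. Among the called changes, Olfr132 went from 15 to 3 reads, Olfr633 from 11 to 2 and Olfr539 from 13 to 2, and Olfr1423 went from 5 to 12, Olfr1357 from 4 to 10 and Olfr157 from 4 to 10.

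The 16 receptors listed for their well-studied ligands or expression held between 2 and 19 Tip60 reads upon GFP KD. Olfr16 (MOR23), which responds to lyral, held 11 and 13 Tip60 reads, 5 and 1 Hdac6 reads, 9 untagged reads, and 9 and 15 p400 reads. Olfr17 (P2), long used to study receptor choice, held 8 and 5, 3 and 2, 12, and 11 and 14 in the same order. Olfr73 (mOR-EG), the eugenol receptor, held 9 and 6, 2 and 4, 13, and 13 and 11. In these 3 rows the Tip60 and control counts were of the same order. Olfr151 (M71), an acetophenone receptor, held 2 and 4 Tip60 reads with 6 untagged, and its close relative Olfr160 (M72) held 9 and 3 with 7 untagged. Olfr2 (I7), the octanal receptor, held 4 and 13 with 11 untagged, and Olfr78, which responds to short-chain acids, held 10 and 5 with 9 untagged.

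Among the trace amine receptors, Taar1 held 8 and 10 Tip60 reads with 14 untagged, Taar4 19 and 8 with 7 untagged, and Taar5, the trimethylamine receptor, 8 and 7 with 7 untagged. Tip60 upon GFP KD and the control measured 0.900 and 0.286 RPM at Taar4 and 0.370 and 0.295 RPM at Taar5, whereas Taar1 had less Tip60 than control, at 0.398 and 0.625 RPM. Vmn2r26 held 3 and 17 Tip60 reads with 8 untagged and 10 and 6 p400 reads. Vmn2r116, the receptor of the male pheromone ESP1, held 7 and 5 Tip60 reads with 7 untagged and 21 and 12 p400 reads, in a window with 57.1% unique 50-mers. The 17 Tip60 reads of Vmn2r26 and the 21 p400 reads of Vmn2r116 were the highest counts of each row over the 7 libraries.

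The bitter receptors Tas2r105, which detects cycloheximide, and Tas2r108, which detects denatonium, held 8 and 6, and 6 and 10 Tip60 reads, with 11 and 8 untagged reads. Tas2r138 held 7 and 7 with 12 untagged, and Tas2r131 held 13 and 6 with 12 untagged. Their p400 reads were 5 and 15 for Tas2r105, 16 and 17 for Tas2r108, 15 and 20 for Tas2r138 and 15 and 7 for Tas2r131. The p400 libraries differ in depth, and in RPM Tas2r108 measured 0.626 and 0.552 and Tas2r138 0.600 and 0.623. Tas2r131 was the one of the 4 whose Tip60 level upon GFP KD (0.611 RPM) stood above its control (0.529 RPM).

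The genes that act with the receptors had higher median levels than the receptor rows in every library, the untagged control included. A list of 33 genes of olfactory, vomeronasal and taste transduction and of receptor choice gave 40 rows of 29 genes. Their median was 0.521 RPM for Tip60 upon GFP KD, 0.988 for Hdac6 upon GFP KD, 0.862 for p400 upon GFP KD and 0.613 in the control, compared with receptor medians of 0.354, 0.279, 0.352 and 0.344. Upon Hdac6 KD the p400 median of the list was 0.631, while that of the receptors was 0.348. Hdac6 was called over untagged in 12 of the 40 rows (30.0%), near the 34.8% of all rows, among them Omp, the olfactory marker protein, Gng13, the G protein subunit of olfactory and taste cells, and Kdm1a, the histone demethylase LSD1. Tip60 was called over untagged in 1 (2.5%, with 12.3% of all rows called), a row of Gnal, which encodes the olfactory G protein.

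Upon Hdac6 KD, 9 of the 40 rows (22.5%) were called lower for Tip60 and 1 (2.5%) higher, where 15.6% and 5.19% of all rows were. For p400, 6 (15.0%) were called lower and 0 higher, where 20.9% and 2.53% of all rows were. With 40 rows these counts lay near the shares over all rows, and the rows named are examples. The rows lower for Tip60 included 2 of the 3 rows of the adenylyl cyclase Adcy3, whose windows overlap and count largely the same reads, 17 and 6 in each, and Gng13, with 16 and 2 reads. Lbr, the lamin B receptor that tethers heterochromatin, was lower for Tip60 in 2 rows, and Lhx2, a homeodomain factor of olfactory neurons, was the row called higher. The rows lower for p400 included Ebf1, an Olf1/Ebf factor, Cbx5, the heterochromatin protein HP1α, and Gnai2, a vomeronasal G protein, with 29 and 15 reads. No row of the list was called for Hdac6 upon Tip60 KD in either direction, where 4% and 3.13% of all rows were.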

How the data were processed

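Tip60, Hdac6, untagged Flag and p400 ChIP-seq was analysed in 7 libraries of mouse ESCs, 1 per condition, with groups taken from the labels. The deposited values are coverage signal per 1000000 reads in 201 bins of 20 bp from −2000 to 2000 bp. Base calls came from CASAVA 1.8.2 per the labels, and the authors collapsed reads with their occurrences kept, mapped them to mm9 with Bowtie (at most 1 mismatch, repeated matches placed at random), extended them and removed simple repeats. Extension to 150 bp is stated, but isolated reads spanned 299 bp in all but the Hdac6 files (148 and 149 bp), so coverage was converted to reads by each file's own step and span. The Bowtie version and the list of start sites are not given in the sources used here. The p400 files hold 22704 rows and the Flag files 36733.

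RPM within 500 bp of the row start were compared between groups of rows and between libraries as ratios of sums, with 95% exact conditional binomial (Clopper-Pearson) intervals. They cover counting error only, since every condition is 1 library. PCR duplicates were kept, so reads are not all independent and the intervals may be too narrow even for counting error. Calls needed 2-fold and 10 reads. The depth was read from the step of each file, at which 1 read amounted to 0.0319 to 0.108 RPM. GC content, CG counts and the uniqueness of 50-mers were read from the NCBIM37 (mm9) genome and exons from GENCODE vM1. Scripts were run in Python 3.11.15 with numpy 2.4.6, scipy 1.17.1, pandas 2.3.3, numba 0.67.0 and matplotlib 3.10.9, and were tested on simulated data. Rows were named by a rule: the 6, 5 and 5 receptor rows with the most Tip60, p400 and Hdac6 upon GFP KD, the 3 largest called differences in each direction of each knockdown comparison, known receptors (V1rb2 had no row under that symbol), and pathway genes, of which those called are named with examples. The members and lists were chosen with earlier results of these data known. Counts under other folds, minimums, scalings and an exact binomial test on reads with Benjamini-Hochberg adjustment were tried as alternatives.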

Additional observations from a re-analysis of the deposited data

How the results depend on the processing

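No paired analysis was possible because every condition has 1 library, and no replicate could be left out. Leaving out the 4 receptor rows with another gene's RefSeq row within 4000 bp changed none of the 9 level and change values by more than their counting interval, and scaling the libraries to equal flank totals kept all 8 counts of calls within 1.5 times. Called at 1.5-fold, the receptor rows were 189 for Tip60 over untagged, 187 lower and 212 higher for Tip60, 177 lower and 223 higher for p400 and 39 lower for Hdac6. Of all rows, 25.2%, 28.1%, 11.3%, 42.6%, 7.62% and 10.5% were called by this rule. With at least 20 reads in the higher library they were 4 for Tip60 and 4 for Hdac6 over untagged, 6 and 11 for Tip60, 3 and 24 for p400 and 0 and 0 for Hdac6. The shares of all rows were 5.57%, 11.8%, 4.71%, 1.13%, 18.5%, 1.48%, 0.798% and 0.583%. By the exact binomial test on reads (adjusted p below 0.05 over all rows), which compares the libraries and not the conditions, they were 2, 23, 2, 3, 4, 8, 0 and 0 in the same order. The shares of all rows were then 1.34%, 22.3%, 0.422%, 0.0517%, 13.1%, 0.3%, 0% and 0.00272%. Fewer rows can reach 20 reads or the adjusted p at these depths.

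In the window from −100 to 300 bp, the receptor level against other rows was 0.699 in the untagged control and 0.391 for p400, Tip60 over untagged was 1.07, Hdac6 over untagged was 1.04 and the Tip60 change was 0.324%. Divided by the level at 1500 to 2000 bp, the receptor level was 0.810 for Tip60, 0.944 for Hdac6, 0.931 for untagged and 0.630 for p400, Hdac6 over untagged was 1.59, and the changes were −5.57% for Tip60, 13.4% for p400 and −7.03% for Hdac6. With at least 95% unique 50-mers, the level was 0.672 for Tip60, 0.380 for Hdac6, 0.782 for untagged and 0.448 for p400, Tip60 over untagged was 1.01 and the Tip60 change was 6.13%. Hdac6 over untagged changed direction in the first 2 of these settings and the Tip60 change in the second, and the cause was not tested. With a median of 3 to 11 reads per receptor row, a 2-fold difference in a single row is not resolved at this depth, and a difference between cultures cannot be told apart from the knockdown.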

Other observations

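One receptor row lay in the top 1% of all rows of the untagged control. At Olfr859 the control measured 1.90 RPM, while Tip60 measured 0.474 upon GFP KD and 0.223 upon Hdac6 KD, Hdac6 0.640 and 0.452, and p400 0.698 and 0.390. The row has 39.2% GC and 79.0% unique 50-mers. The row was chosen after its values were seen.

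Receptor rows that did not begin on an ATG (n = 97) measured 0.277 RPM for Hdac6 upon GFP KD and 0.317 in the control, compared with 0.339 and 0.365 in the 1254 that did. In other rows with a RefSeq identifier, the 824 that began on an ATG measured 0.901 for Hdac6 and 0.483 in the control, and the 20529 that did not measured 1.09 and 0.550. These groups were formed after the start positions had been seen.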
